A study of Mus musculus with 12 samples.

Results

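Costimulatory ligands and genes of dendritic cell maturation were examined as a list of 10 genes: Cd80, Cd86, Cd40, Cd83, Icosl, Tnfsf9, Tnfsf4, Tnfsf14, Cd48 and Ccr7. The members were chosen by gene symbol, and each of the 10 had 1 row among the 16805 genes counted in neutrophils and the 16954 counted in monocytes. All libraries came from spleens of mice labelled wild type, and RNA was sequenced from cells pulled out with a PE-coupled antibody. The control neutrophils (n = 3) were Ly6G-selected cells of tumor-bearing mice without therapy, and the CTT neutrophils (n = 3) were taken in the same way 12 h after cryo-thermal therapy (CTT), a local treatment that freezes and then heats the tumor. The CTT monocytes (n = 3) were CCR2-selected cells taken 5 days after CTT, and the anti-Ly6G monocytes (n = 3) came from mice that had CTT and also received anti-Ly6G, an antibody against a neutrophil surface protein. Both monocyte groups had therefore been through CTT. The sources used here do not give the tumor type, strain, age, antibody dose or number of mice behind each library.

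T cells need more than an antigen to respond. The B7 molecules CD80 and CD86 on an antigen-presenting cell engage CD28 on the T cell, or the inhibitory receptor CTLA-4, and ICOS ligand and several TNF family ligands add further signals through their own receptors. In the other direction, CD40 receives CD40 ligand from activated T cells and drives the presenting cell to raise its B7 molecules. Dendritic cells that mature also display CD83 and switch on CCR7, the chemokine receptor that guides them, B cells and naive T cells into the T cell zones of spleen and lymph node. B cells carry many of the same molecules, so in spleen these genes are not specific to dendritic cells.

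The libraries held 30942849 to 35956571 counted reads each. The labels and the markers of the cells did not line up fully. Ly6g, which encodes the protein used to select the neutrophils, averaged 11.8 ± 2.66 CPM (read counts scaled to sequencing depth, with TMM within each cell type's table; SD, n = 3) in the control neutrophils, and in the CTT monocytes it averaged 13.6 ± 2.26 CPM. The 11 neutrophil markers summed to 3902 to 5788 CPM in control neutrophils, 7293 to 11970 after CTT, 4643 to 6323 in CTT monocytes and 12620 to 16990 with anti-Ly6G. The 12 B cell markers summed to 3273 to 8254, 6729 to 7313, 3976 to 5809 and 3074 to 4233 CPM in the same order. The 8 conventional dendritic cell markers, among them Flt3 and Zbtb46, summed to 442.2 to 590.4 CPM over all 12 libraries, and no marker of these lists was at 0 in any library. "Neutrophils" and "monocytes" below stand for the cells labelled so. In such mixed libraries a change in the number of cells of a type and a change in RNA per cell cannot be told apart. Control replicate 1 of the neutrophils stood apart, with 9 erythroid markers summing to 11800 CPM against 289.7 to 1977 CPM in the other 5 neutrophil libraries and with the lowest B cell sum, 3273 CPM.

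**Figure D1:**
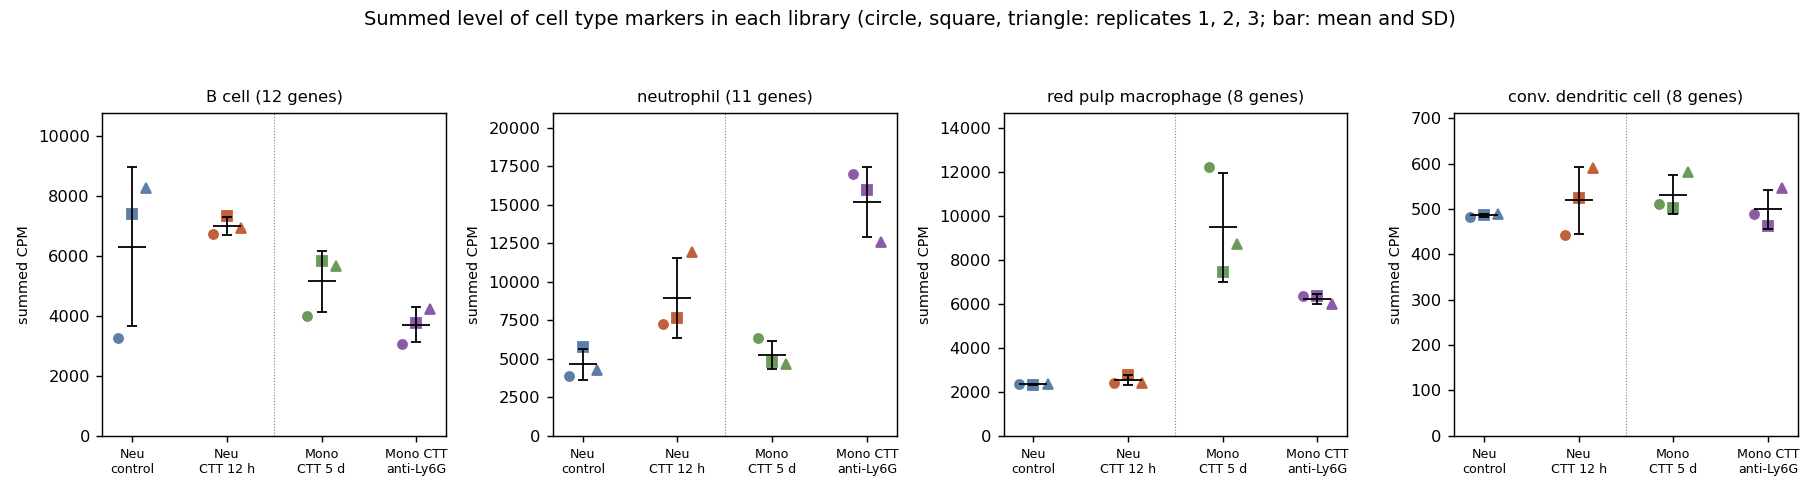
Summed CPM of 4 marker lists (y axes) in each of the 12 libraries, by group (x axis), with the mean and SD of 3 libraries as bars. B cell markers were lowest in control replicate 1 among the neutrophil libraries (3273 CPM), neutrophil markers were highest in the anti-Ly6G monocytes (12620 to 16990 CPM), and red pulp macrophage markers ran from 7458 to 12230 CPM in CTT monocytes against 5980 to 6369 CPM with anti-Ly6G.

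On GRCm38.p6 (mm10) all 10 members are protein coding. Cd80 (Entrez gene 12519) lies on chromosome 16 from 38457430 to 38495958 on the plus strand, and Cd86 (12524) on the same chromosome from 36568956 to 36666158 on the minus strand. Tnfsf9 (21950, 57105287 to 57107758, plus strand) and Tnfsf14 (50930, 57189474 to 57194181, minus strand) lie close together on chromosome 17. Cd40 (21939) lies on chromosome 2 from 165055614 to 165071654, Cd83 (12522) on chromosome 13 from 43785112 to 43803133, Icosl (50723) on chromosome 10 from 78069368 to 78079525 and Ccr7 (12775) on chromosome 11 from 99144199 to 99155077. Tnfsf4 (22164) and Cd48 (12506) lie on chromosome 1, from 161395438 to 161418206 and from 171681245 to 171705258. In GENCODE M21 1 member, Tnfsf9, has exons that overlap those of another gene, the noncoding Gm11110 on the opposite strand. Whether counting used the strand is not stated in those sources, so the Tnfsf9 counts may hold reads of Gm11110.

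Promoter sequence from RefSeq was at hand for 4 members, Cd80, Icosl, Tnfsf14 and Cd48. The 2 of them whose transcripts passed the test in the monocyte comparison, in opposite directions, are shown as the 250 bases before the start, 5′ to 3′ on the gene's strand, with matches to the AP-1 motif TGANTCA in capitals. Both start sites are RefSeq's, and that of Cd80 lies inside the gene span given above. The Cd80 window is chr16:38458683-38458932 (plus strand) and the Tnfsf14 window chr17:57194182-57194431 (minus strand), both on GRCm38.p6.
Cd80: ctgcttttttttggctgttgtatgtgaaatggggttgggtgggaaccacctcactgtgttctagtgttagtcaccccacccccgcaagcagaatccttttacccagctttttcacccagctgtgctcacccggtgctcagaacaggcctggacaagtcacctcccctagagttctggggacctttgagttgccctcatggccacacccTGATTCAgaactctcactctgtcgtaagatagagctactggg
Tnfsf14: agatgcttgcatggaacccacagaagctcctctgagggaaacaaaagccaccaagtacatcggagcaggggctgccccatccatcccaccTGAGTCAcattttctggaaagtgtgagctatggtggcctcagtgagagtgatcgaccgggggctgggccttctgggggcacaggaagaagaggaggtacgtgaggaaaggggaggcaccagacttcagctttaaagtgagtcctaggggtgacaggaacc
The match in Cd80 begins 42 bases before the start and that in Tnfsf14 begins 160 bases before it. Of all 32851 RefSeq windows of this length, 6.75% hold TGANTCA on either strand. Among the 4 member windows it was in 2, Cd80 and Tnfsf14, and not in Icosl or Cd48. It was 1 of 7 motifs searched on both strands. Only the NF-kB motif was planned. The other 6, TGANTCA among them, were added after the values had been seen, so its presence in the 2 members that passed tests nothing. The NF-kB motif (3 G, any 2 bases, 2 T, any 1 base, 2 C) was in 0 of the 4 member windows and in 4.11% of all. The ETS motif GGAAGT, the interferon response motif (GAAA, any 2 bases, GAAA) and the C/EBP motif TTNNGCAA were also in 0 of the 4, and in 19.7%, 2.98% and 9.56% of all windows. The PU.1 motif GAGGAA, which shares the letters GGAA with the ETS motif, was in Tnfsf14 (23.3% of all) and the E-box CANNTG in all 4 (66.2%). A match is a stretch of letters and does not show that a factor binds there.

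Compared per gene length, in the FPKM values the authors deposited, the members spanned more than 3 orders of magnitude. Ccr7 was the most abundant in neutrophils, at 113.6 ± 50.7 FPKM (SD, n = 3) in control and 236 ± 76.8 FPKM after CTT. Cd48, the GPI-anchored ligand of CD244 and CD2, was the most abundant in both monocyte groups, at 106.6 ± 3.16 and 100.3 ± 1.64 FPKM. Cd80 stood near the middle of all genes, with 54.5% of genes at or below its mean of 5.32 ± 0.878 FPKM in control neutrophils, while Cd86 stood at 31.97 ± 2.53 FPKM in the same libraries. Tnfsf4, which encodes OX40 ligand, was the lowest member in each group, with means of 0.0705 to 0.226 FPKM.

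**Figure D2:**
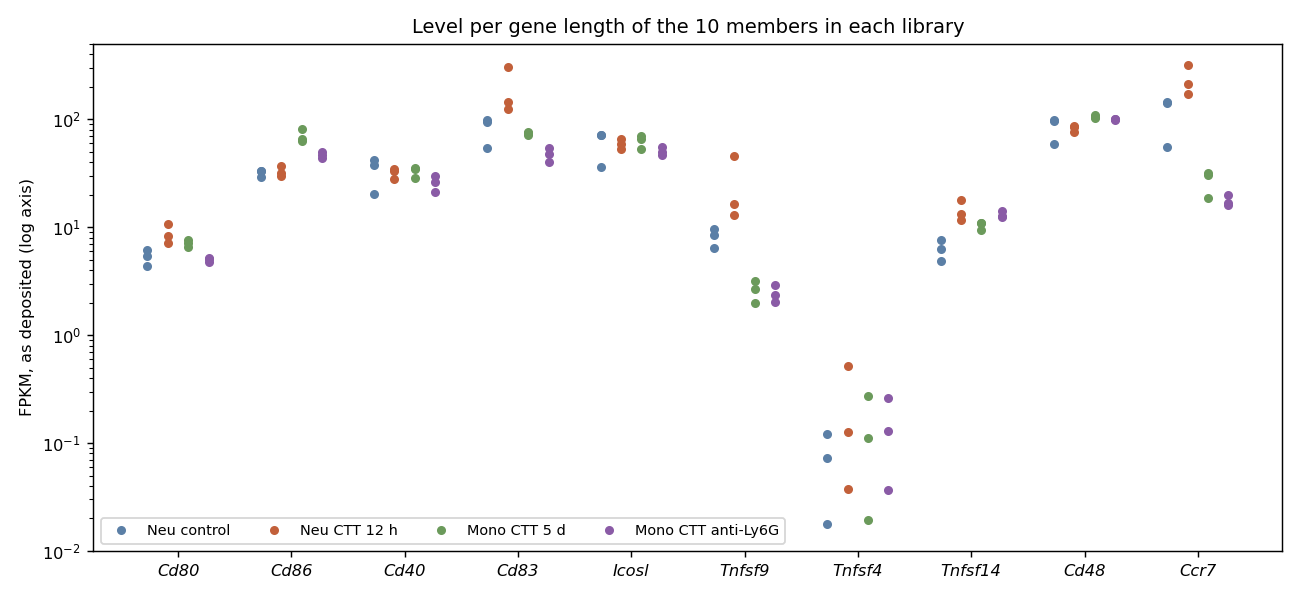
Deposited FPKM (y axis, log scale) of the 10 members (x axis) in each library, 3 points per group. Tnfsf4 lay below every other member in all 12 libraries, and Ccr7 separated the 3 neutrophil libraries of either group (55.06 to 321.7 FPKM) from the 6 monocyte libraries (16 to 31.6 FPKM).

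The first comparison asked how the members differed in neutrophils 12 h after CTT. None of the 9 tested members passed (0 rose and 0 fell) at an adjusted p of 0.05 in edgeR (quasi-likelihood F test, p adjusted by Benjamini-Hochberg over 13058 genes). Of all genes tested, 0.567% rose and 0% fell. The members nonetheless fell into sets by size: Tnfsf9, Cd83, Tnfsf14, Ccr7 and Cd80 had means 1.72 to 3.23 times as high after CTT, and the means of Cd86, Icosl, Cd48 and Cd40 were 1.01 to 1.08 times as high. The first 5 had an unadjusted edgeR p below 0.05, as did 8.28% of all tested genes with a positive fold change. Their CTT and control libraries did not overlap, which held, with CTT higher, for 13.6% of all tested genes. DESeq2 called 4 of them higher (Cd80, Cd83, Tnfsf9 and Tnfsf14; 3.26% of genes rose in that test), while limma-voom and limma-trend on FPKM called 0. Over the 9 members the median log2 fold change was 0.78, against −0.02 for all tested genes. Tnfsf4, the tenth member, had too few reads to be tested.

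**Figure D3:**
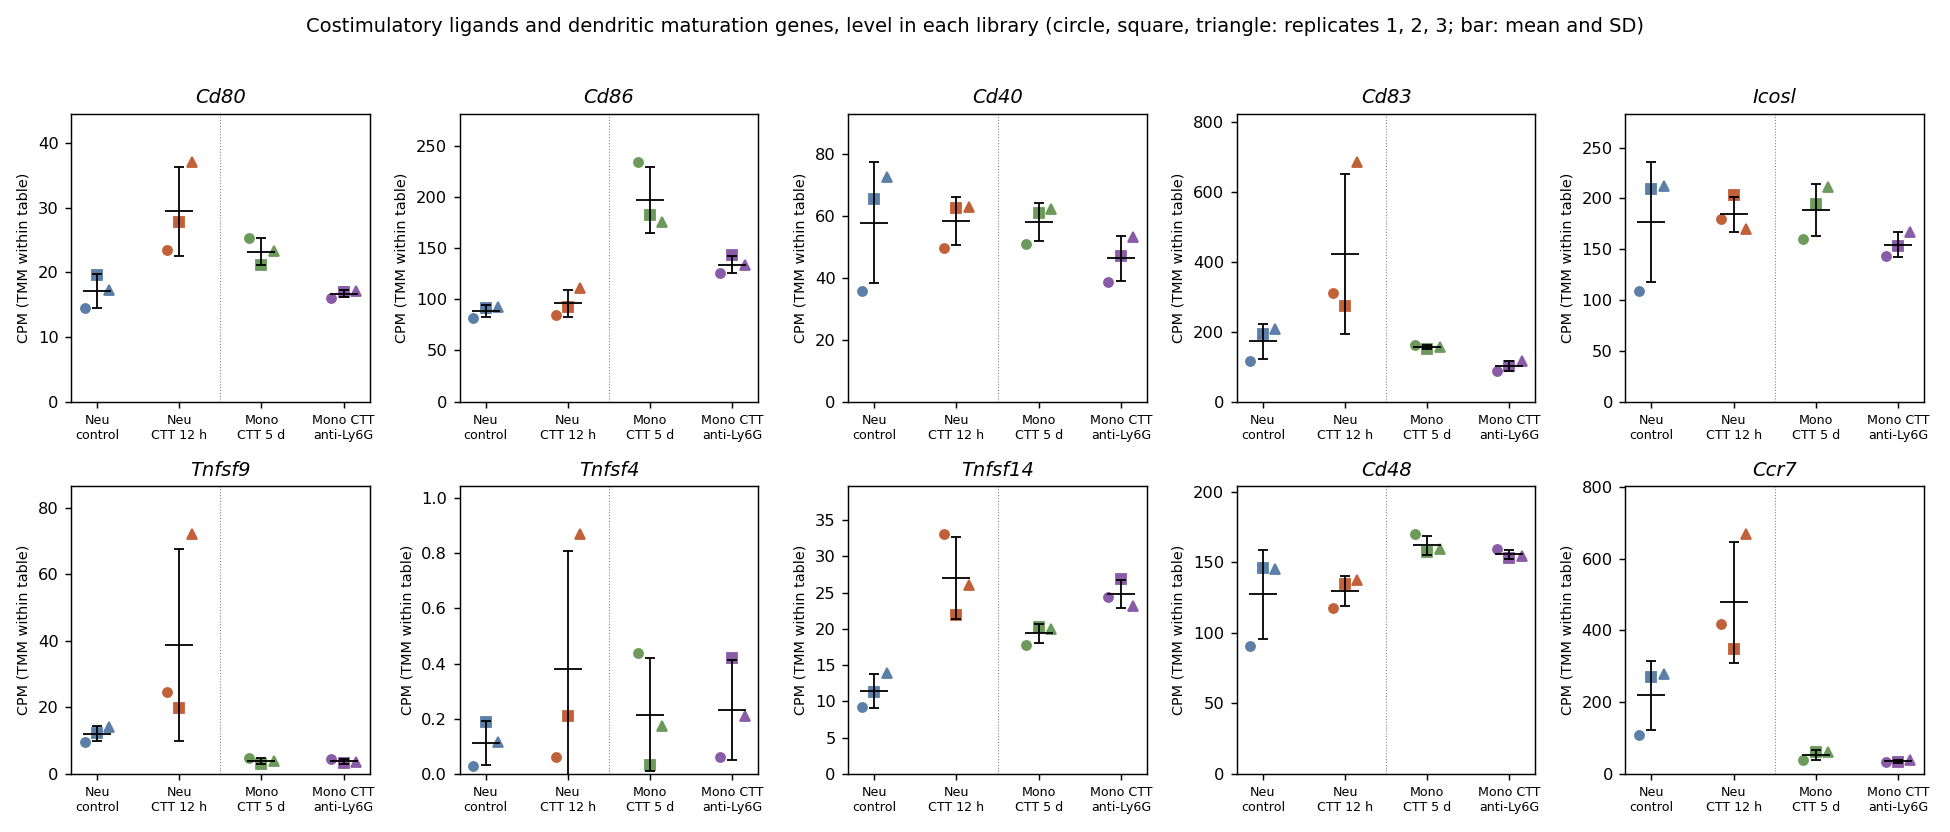
CPM (y axes, each from 0) of each member in the 12 libraries, by group (x axis), with symbols for replicates 1 to 3 and bars for the mean and SD (the Tnfsf4 bar in CTT neutrophils is cut at 0). CTT replicate 3 of the neutrophils was highest for Cd80, Cd83, Tnfsf9 and Ccr7, while Cd86 and Cd48 were higher in all 6 monocyte libraries than in all 6 neutrophil libraries.

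Among the B7 ligands, Cd80 read 14.4, 19.5 and 17.3 CPM in the control neutrophils (replicates 1 to 3) and 23.5, 27.8 and 37.0 CPM after CTT. The groups did not overlap (log2 fold change 0.78, SE 0.21, 95% interval 0.28 to 1.29, edgeR adjusted p = 0.218). Cd86 read 81.9, 91.3 and 92.8 CPM in control and 84.9, 92.1 and 110.9 CPM after CTT. Its groups overlapped, and the 95% interval of its log2 fold change ran from −0.21 to 0.44 (0.11, SE 0.14, edgeR adjusted p = 0.691). The ratio of Cd86 to Cd80 within a library does not depend on scaling between libraries. In FPKM it was 6.59, 5.41 and 6.21 in control neutrophils and 4.19, 3.85 and 3.47 after CTT, a mean of 6.07 ± 0.603 against 3.83 ± 0.357 (SD, n = 3 each). All 3 CTT libraries were lower, a shift of −0.66 on the log2 scale, and the exact two-sided permutation p of 0.1 is the smallest that 3 against 3 libraries allow. This ratio was chosen after the values had been seen.

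**Figure D4:**
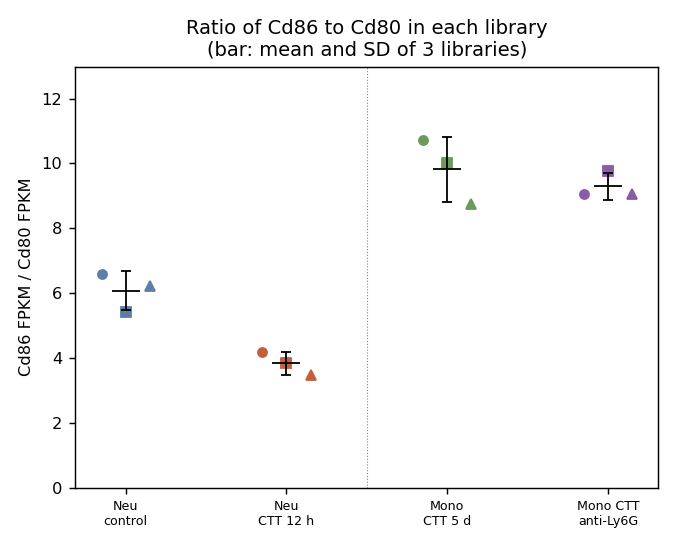
Ratio of Cd86 to Cd80 in FPKM (y axis, from 0) in each library, by group (x axis), with the mean and SD of 3 libraries. The CTT neutrophils (3.47 to 4.19) lay below the control neutrophils (5.41 to 6.59), and both monocyte groups lay higher (8.74 to 10.7 and 9.06 to 9.78).

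Icosl, the ligand of the T cell receptor ICOS, read 108.9, 208.8 and 212.6 CPM in control neutrophils and 179.6, 203.5 and 169.9 CPM after CTT. Control replicate 1 was the low library and the others overlapped, and the difference was 0.06 on the log2 scale (SE 0.25, 95% interval −0.54 to 0.66, edgeR adjusted p = 0.921). Cd40 read 35.7, 65.3 and 72.4 CPM in control and 49.5, 62.5 and 62.8 CPM after CTT, with group means of 57.8 ± 19.5 and 58.3 ± 7.62 CPM and a fold change near 0 (0.01, SE 0.27). Cd48 had the same low value in control replicate 1, at 90.4 CPM against 145.9 and 144.8 CPM in the other controls and 117.1, 134.2 and 137.3 CPM after CTT. For these 3 genes the sign of the fold change depended on the setting: without control replicate 1 it was −0.19 for Icosl, −0.24 for Cd40 and −0.16 for Cd48, and with scaling by library totals it was negative for Cd40 and Cd48. The summed B cell markers were low in the same library (3273 against 6729 to 8254 CPM in the other 5), and their part in these values was not tested.

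Of the TNF family ligands, Tnfsf9, which encodes the ligand of the T cell receptor 4-1BB, read 9.67, 12.2 and 14.1 CPM in control neutrophils and 24.6, 19.6 and 72.0 CPM after CTT. CTT replicate 3 stood far above the other CTT libraries, but these too lay above all controls. The log2 fold change was 1.69 (SE 0.49, 95% interval 0.53 to 2.85, edgeR adjusted p = 0.254), and it was 0.88 without CTT replicate 3. Tnfsf14, which encodes LIGHT, a ligand of HVEM and of the lymphotoxin beta receptor, read 9.15, 11.3 and 13.9 CPM in control and 33.1, 21.95 and 26.0 CPM after CTT. It had the smallest adjusted p among the members (edgeR adjusted p = 0.0828, at a log2 fold change of 1.24, SE 0.22, 95% interval 0.71 to 1.77), and it rose without control replicate 1 (1.10, edgeR adjusted p = 0.0312, where 1.93% of all genes rose). Neutrophil markers were higher in the CTT libraries as well: 2 of the 11 rose, 9 did not pass, and their sums (3902 to 5788 against 7293 to 11970 CPM) did not overlap. The largest of these sums was in CTT replicate 3, also the highest library for Tnfsf9, Cd83, Ccr7 and Cd80, while Tnfsf14 was highest in CTT replicate 1. The part of neutrophils in the values of Tnfsf14 and of these other members was not tested. Tnfsf4 had 1, 6 and 4 reads in the control libraries and 2, 7 and 28 after CTT, which is too few for a comparison, and the highest value was again in CTT replicate 3.

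The maturation genes Ccr7 and Cd83 had the largest differences in mean FPKM of the 10 members (113.6 to 236 and 82.5 to 192.2 FPKM). Cd83, a surface glycoprotein of mature dendritic cells that activated B cells also carry, read 116.0, 193.8 and 206.7 CPM in control neutrophils and 309.8, 272.2 and 684.7 CPM after CTT. Its log2 fold change was 1.29 (SE 0.39, 95% interval 0.37 to 2.22, edgeR adjusted p = 0.273), and it was 0.76 without CTT replicate 3. Ccr7 read 108.3, 271.1 and 277.7 CPM in control and 418.7, 347.6 and 668.4 CPM after CTT. Each CTT library was above each control, a difference of 1.13 on the log2 scale (SE 0.40, 95% interval 0.19 to 2.07, edgeR adjusted p = 0.327) that moved to 0.81 without control replicate 1 and to 0.81 without CTT replicate 3. Of the 12 B cell markers 0 passed in edgeR (0 with an unadjusted p below 0.05, 0 in DESeq2, limma-voom or limma-trend), with CTT sums of 6729 to 7313 CPM inside the control range of 3273 to 8254 CPM. Control replicate 1 set the low end of that range and was also the lowest control for Cd83 and Ccr7. Conventional dendritic cell markers summed to 481.8 to 489.5 CPM in control and 442.2 to 590.4 CPM after CTT, with CTT replicate 3 the highest of the 6. Itgax had the highest mean of these 8 markers (223.6 ± 14.4 to 259.3 ± 59 CPM). Of the 8, 0 passed in edgeR (1 with an unadjusted p below 0.05, 0 by the other tools), and fold changes were positive for 4 and negative for 4. Zbtb46, Xcr1 and Clec9a were lower in all 3 CTT libraries without overlap, as were 11% of all tested genes, and Flt3 was higher (13.6%). The neutrophil and monocyte marker sums were also highest in CTT replicate 3 among the neutrophil libraries (11970 and 2255 CPM). The part of B cells, dendritic cells, neutrophils and monocytes in the Cd83 and Ccr7 values was not tested.

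The second comparison asked how anti-Ly6G on top of CTT went with the members in monocytes 5 days after the therapy. Cd83, Cd86 and Cd80 fell and Tnfsf14 rose, while Cd40, Icosl, Ccr7, Cd48 and Tnfsf9 did not pass. Thus 3 of 9 tested members fell and 1 rose in the same edgeR test, adjusted over 13294 genes, of which 5.12% fell and 10.2% rose. DESeq2 gave 5 that fell, with Icosl and Ccr7 added, and 1 that rose, where 9.11% and 11.8% of all genes did. The median log2 fold change of the 9 members was −0.33, against 0.00 for all tested genes, and 8 of the 9 had a negative fold change. The 4 members that passed were also those whose groups did not overlap, 3 lower and 1 higher, as were 15.4% and 20.6% of all tested genes.

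**Figure D5:**
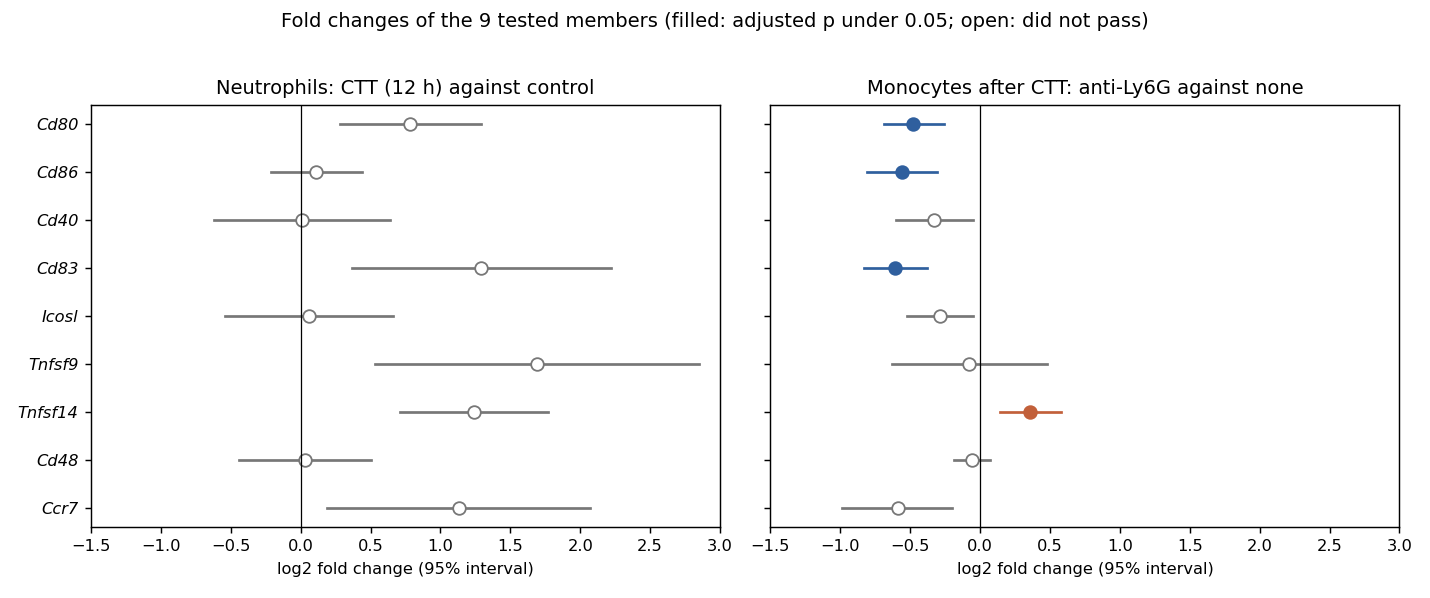
Log2 fold change (x axis) with its 95% interval for the 9 tested members (y axis), in neutrophils after CTT against control and in monocytes with anti-Ly6G against CTT alone; filled points passed an adjusted p of 0.05. The neutrophil intervals are wide and no point is filled, while in monocytes Cd80, Cd86 and Cd83 are filled left of 0 and Tnfsf14 right of it.

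Both B7 genes fell by similar amounts. Cd86 read 233.7, 181.7 and 175.1 CPM in CTT monocytes and 125.5, 142.7 and 133.2 CPM with anti-Ly6G, a fall of 0.56 on the log2 scale (log2 fold change −0.56, SE 0.11, edgeR adjusted p = 0.0111). CTT replicate 1 was the highest library, and without it the fold change was −0.42. It also held the largest sum of its group for red pulp macrophage (12230 CPM), neutrophil (6323), monocyte (4756) and erythroid markers (2068). Its B cell (3976 CPM) and T cell (108.6) sums were the lowest of the group. The part of these cells in the Cd86 values was not tested. Cd80 read 25.25, 21.1 and 23.2 CPM with CTT alone and 16.1, 16.9 and 17.0 CPM with the antibody (−0.48, SE 0.10, edgeR adjusted p = 0.0127). The ratio of Cd86 to Cd80, chosen after the values had been seen, was 9.82 ± 1.00 in CTT monocytes and 9.30 ± 0.413 with anti-Ly6G (SD, n = 3). Its libraries overlapped, with an exact two-sided permutation p of 0.6. The smallest p that 3 against 3 libraries allow is 0.1, so this test cannot show that the ratio stayed the same. The calls on Cd80 and Cd86 depended on the libraries: without anti-Ly6G replicate 1 neither passed (edgeR adjusted p = 0.0549 and 0.0552), nor did Cd80 without CTT replicate 3 (edgeR adjusted p = 0.0522).

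Cd83 had the firmest difference among the members. Its CTT monocyte libraries read 162.8, 151.2 and 156.6 CPM and its anti-Ly6G libraries 87.7, 103.4 and 117.4 CPM, which leaves a wide gap between the groups. The log2 fold change was −0.61 (SE 0.10, 95% interval −0.83 to −0.38, edgeR adjusted p = 0.00462), and Cd83 fell under all 17 alternatives, with adjusted p-values of 5.83e-07 to 0.0269. Ccr7, the other maturation gene, read 37.1, 59.3 and 61.4 CPM with CTT alone and 33.8, 31.9 and 39.1 CPM with anti-Ly6G. CTT replicate 1 was the low library here and overlapped the antibody group. Ccr7 lay close to the threshold, which it missed (−0.59, SE 0.17, edgeR adjusted p = 0.0524). It passed under 7 of the 17 alternatives, among them the 3 other scalings in edgeR (adjusted p = 0.0402 to 0.0486), no filter (0.034) and the fit without CTT replicate 1 (−0.79, 0.000357), and over all 17 its adjusted p ranged from 0.000357 to 0.173.

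Cd40 and Icosl had smaller differences in the same direction. Cd40 read 50.9, 60.9 and 62.1 CPM and, with anti-Ly6G, 38.7, 46.8 and 53.1 CPM (−0.33, SE 0.12, 95% interval −0.60 to −0.05, edgeR adjusted p = 0.103). Icosl read 160.4, 194.3 and 211.1 CPM and, with the antibody, 143.1, 153.3 and 167.4 CPM (−0.29, SE 0.10, 95% interval −0.52 to −0.05, edgeR adjusted p = 0.0964). In both genes CTT replicate 1 was the lowest of its group and overlapped the antibody libraries, and both fell without it (edgeR adjusted p = 0.0298 for Cd40 and 0.00553 for Icosl, where 8.64% of all genes fell). Cd48 read 169.7, 156.9 and 159.4 CPM against 159.0, 152.7 and 154.6 CPM, and its narrow interval of −0.19 to 0.07 bounds any difference (−0.06, SE 0.06, edgeR adjusted p = 0.533).

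Of the 3 TNF family ligands among the members, Tnfsf14 passed the test, Tnfsf9 did not and Tnfsf4 was too low to test. Tnfsf14 read 17.8, 20.25 and 20.0 CPM in CTT monocytes and 24.3, 26.95 and 23.2 CPM with anti-Ly6G. All 3 antibody libraries were higher, and it rose by 0.36 on the log2 scale (SE 0.10, edgeR adjusted p = 0.0383). That call was lost when any 1 of the 6 libraries was left out (edgeR adjusted p = 0.0589 to 0.126) and under scaling by library totals or the upper quartile (0.0558 and 0.0601). Tnfsf9 stood at 4.84, 2.96 and 3.94 CPM and, with the antibody, at 4.49, 3.09 and 3.56 CPM, so that the groups overlapped throughout (−0.08, SE 0.24, 95% interval −0.63 to 0.48, edgeR adjusted p = 0.867). Tnfsf4 had 14, 1 and 6 reads in CTT monocytes and 2, 15 and 7 with anti-Ly6G and was not tested.

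Markers of several cell types moved with these values. Of the 11 neutrophil markers 10 rose with anti-Ly6G, and the 11 summed to 4643 to 6323 and 12620 to 16990 CPM. Ly6g itself, whose product the antibody binds, rose from 13.6 ± 2.26 to 56.1 ± 7.19 CPM. Of the 8 red pulp macrophage markers 7 fell, among them the adhesion molecule gene Vcam1 (−0.78, SE 0.18), with sums of 7458 to 12230 and 5980 to 6369 CPM. Of the 12 B cell markers 3 fell in edgeR, and the sums of 3976 to 5809 and 3074 to 4233 CPM overlapped. All 12 had a negative fold change (median log2 fold change −0.48), and 11 had an unadjusted edgeR p below 0.05. DESeq2 called 10 of them lower, limma-voom 3 and limma-trend 0. CTT replicate 1, in which Ccr7, Cd40 and Icosl were lowest for their group, had the lowest B cell sum of that group. None of the 8 conventional dendritic cell markers passed in edgeR (0 rose, 0 fell, 0 with an unadjusted p below 0.05, and 0 in DESeq2, limma-voom and limma-trend), with sums of 502.7 to 581.2 and 462.1 to 545.6 CPM and a median log2 fold change of −0.06. Ccr2, the selection marker, rose from 216.2 ± 41.5 to 512.5 ± 73.9 CPM. It was 1 of 6 monocyte markers, of which 4 rose and 2 fell, and their sums of 2987 to 4756 and 3715 to 4560 CPM overlapped. Of 10 T cell markers 4 rose and 1 fell, with low and overlapping sums of 108.6 to 129.1 and 99.2 to 118.1 CPM. The part of these cell types in the values of Cd80, Cd86, Cd83 and Tnfsf14 was not tested.

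Set side by side over the 4 groups, whose tables were normalized separately and which differ in antibody, time and therapy, the members took different orders. Cd86 was highest in CTT monocytes (197 ± 32.1 CPM), then in anti-Ly6G monocytes (134 ± 8.61), and these 2 groups and the neutrophils were apart, while the CTT and control neutrophils (96.0 ± 13.4 and 88.7 ± 5.90) overlapped. Cd83 was highest in CTT neutrophils (422 ± 228 CPM), followed by control neutrophils (172 ± 49.1) and CTT monocytes (157 ± 5.80), which overlapped. The anti-Ly6G monocytes (103 ± 14.9) were lowest and lay apart from the CTT monocytes. Their highest library (117.4 CPM) still overlapped the lowest control neutrophil library (116 CPM). Ccr7 ran from 478 ± 168.5 CPM in CTT neutrophils through 219 ± 95.9 in controls to 52.6 ± 13.4 and 34.9 ± 3.72 in the monocyte groups, of which the last 2 overlapped. Tnfsf9 had the same order, with 38.75 ± 28.9, 12.0 ± 2.23, 3.91 ± 0.940 and 3.71 ± 0.713 CPM. Cd80 was highest in CTT neutrophils (29.4 ± 6.91 CPM), overlapping CTT monocytes (23.2 ± 2.10), with control neutrophils (17.1 ± 2.58) and anti-Ly6G monocytes (16.7 ± 0.532) lower and overlapping each other. Tnfsf14 was the member with its lowest mean apart from all others in control neutrophils (11.45 ± 2.36 CPM), below 19.4 ± 1.37 in CTT monocytes, 24.8 ± 1.94 with anti-Ly6G and 27.0 ± 5.62 in CTT neutrophils. The 4 groups overlapped from neighbour to neighbour in Cd40, Icosl and Tnfsf4, and for Cd48 the monocytes lay above the neutrophils with overlap within each pair.

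Receptors that read the members' signals were measured in the same libraries. In neutrophils 0 of 12 partner receptor genes passed in edgeR (3 rose in DESeq2, as did 3.26% of all genes, and 0 in limma-voom and limma-trend). An unadjusted edgeR p below 0.05 was reached by 3 of them, all with positive fold changes, as by 8.28% of all tested genes. The 4 with the smallest p were Ctla4, the inhibitory receptor for CD80 and CD86 (15.2 ± 4.11 to 35.4 ± 7.14 CPM, log2 fold change 1.22, SE 0.25, edgeR adjusted p = 0.121), Cd244a, the receptor for CD48 (0.67, adjusted p = 0.126), Ltbr, the lymphotoxin beta receptor that binds LIGHT (0.61, adjusted p = 0.127), and Tnfrsf14, which encodes HVEM (−0.73, adjusted p = 0.368). In monocytes 2 of the 12 rose with anti-Ly6G and 10 did not pass, where 10.2% of all tested genes rose. Cd244a went from 92.5 ± 4.63 to 119.3 ± 4.29 CPM (0.37, SE 0.06, edgeR adjusted p = 0.00588) and Ltbr from 55.9 ± 8.23 to 77.1 ± 1.66 CPM (0.46, SE 0.10, edgeR adjusted p = 0.0154). Icos (−0.55, adjusted p = 0.0663) and Cd2 (−0.43, adjusted p = 0.0861) were next by p.

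Further ligands and signaling genes were taken as lists. Of 16 other costimulatory and adhesion ligands tested in monocytes, 3 fell with anti-Ly6G, where 5.12% of all tested genes fell. These were Timd4, the phosphatidylserine receptor TIM-4 (50.4 ± 11.1 to 28.6 ± 1.47 CPM, −0.82, SE 0.14, edgeR adjusted p = 0.00591), Ly9, a SLAM family receptor (−0.32, SE 0.06, edgeR adjusted p = 0.0101), and Tnfsf15, the TNF family ligand TL1A (−1.12, SE 0.31, edgeR adjusted p = 0.0417). Tnfsf13b, which encodes the B cell survival factor BAFF, had a log2 fold change of 0.62 (adjusted p = 0.11). In neutrophils 0 of 16 passed, led by Timd4 (−0.92, SE 0.16, edgeR adjusted p = 0.0795). It alone had an unadjusted edgeR p below 0.05, as did 5.74% of all tested genes with a negative fold change. In DESeq2 1 of the list fell (0.783% of all genes), and 0 in limma-voom and limma-trend. The list's medians were 0.03 in neutrophils and −0.12 in monocytes.

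Of 15 genes of CD40 and TNF receptor signaling, 1 fell in monocytes, where 5.12% of all tested genes fell. It was Tnfaip3, the ubiquitin-editing enzyme A20 that restrains NF-kB (203.2 ± 23.5 to 143 ± 12.2 CPM, −0.51, SE 0.10, edgeR adjusted p = 0.00921). In neutrophils 0 of 15 passed (1 rose in DESeq2, as did 3.26% of all genes, and 0 in limma-voom and limma-trend). An unadjusted edgeR p below 0.05 was reached by 3, all with positive fold changes, as by 8.28% of all tested genes. These were Tnfaip3 (544.1 ± 157 to 1362 ± 658 CPM, 1.32, SE 0.37, edgeR adjusted p = 0.234), the NF-kB inhibitor gene Nfkbia (0.84, adjusted p = 0.273) and the NF-kB subunit gene Rel (0.98, adjusted p = 0.31). These 3 and Birc2 (0.34, edgeR adjusted p = 0.399) were each higher in all 3 CTT libraries without overlap, as were 13.6% of all tested genes. The other dendritic maturation genes gave 0 of 15 tested genes in either comparison in edgeR, with medians of 0.20 and −0.18. An unadjusted edgeR p below 0.05 was reached by 2 in neutrophils, both positive (8.28% of all tested genes), and by 1 in monocytes, negative (13.4%). In DESeq2 1 fell in monocytes, as did 9.11% of all genes, and 0 passed in neutrophils or by the remaining tools. The leading ones were the cytokine gene Il15 (0.53, adjusted p = 0.313) and its receptor gene Il15ra (0.44, adjusted p = 0.351) in neutrophils and Socs2, an inhibitor of cytokine signaling (−0.47, adjusted p = 0.0505), in monocytes. Of the CCR7 ligands, Ccl19 was too low to test in both tables and Ccl21a, a gene with near-identical copies, averaged at most 0.338 CPM in any group.

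The genes most like the 3 members that varied most were sought among 12717 protein coding genes tested in both tables, by the root mean square difference of log2 CPM centred within each table over the 12 libraries. For Ccr7 these were Egr3 (difference 0.06), Dusp4 (0.13) and Zc3h12c (0.16). For Cd83 they were Rasgef1b (0.10), Baiap2l1 (0.13) and Tnfaip3 (0.14), and for Tnfsf9 they were Ifrd1 (0.25), Tnfaip3 (0.25) and Mfsd2a (0.26). Egr3, an immediate early transcription factor gene, had log2 fold changes of 1.06 in neutrophils and −0.52 in monocytes, beside 1.13 and −0.59 for Ccr7. Rasgef1b had 1.23 and −0.47, beside 1.29 and −0.61 for Cd83. These genes were picked for their likeness over the same libraries, so the values describe them and test nothing.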

How the data were processed

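RNA-seq read counts were analysed for 12 libraries in 4 groups of 3, grouped by sample titles. The authors deposited whole-number counts per gene in 1 table per cell type, and FPKM values (per gene length and sequencing depth), made with HISAT2, HTSeq and mm10 per the submitters' processing notes; tool versions, annotation and strand use are not stated in the sources used here. Each table was fitted alone in R 4.3.3 with edgeR 4.0.16 (filterByExpr, TMM, quasi-likelihood F test, two-sided, Benjamini-Hochberg over 13058 and 13294 genes). Standard errors are the absolute log2 fold change over the square root of F, and 95% intervals use the t quantile of that test. The labels call the libraries biological replicates without naming their animals, so the p-values speak only to the spread among these libraries. All value columns matched a sample (0 left out), and no pair of libraries agreed within counting error (chi-square per degree of freedom of at least 12.6).

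The members, lists, tests and alternatives were chosen with earlier results of these data known. All 10 members are named, and from each pathway list up to 4 genes of smallest p. Alternatives were other scalings, filters, DESeq2 1.42.0, limma 3.58.1 (voom, and trend on log2 of FPKM plus 1 or 0.1), the replicate block and leaving out each library. The calling step was tested on simulated data. Promoters came from RefSeq (GRCm38.p6), matched by symbol for 4 of the 10 members. Protein sequences were not used here.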

Additional observations from a re-analysis of the deposited data

How the results depend on the processing

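Each comparison was refitted under 11 other settings and 6 fits that left out 1 library each. In neutrophils the number of members that rose was 0 in edgeR and 4 in DESeq2, where 0.567% and 3.26% of all genes rose. It ranged from 0 to 1 when 1 library was left out, the 1 being Tnfsf14 without control replicate 1 (1.93% of all genes). The number that fell was 0 in each fit. In monocytes the number that rose was 1, where 10.2% of all genes rose. It was 0 under library totals, upper quartile and limma-trend on log2 of FPKM plus 1 or 0.1 (8.84%, 8.04%, 5.21% and 5.41% of all genes). It was also 0 in each fit without 1 library. The number that fell was 3, where 5.12% of all genes fell. It was 4, with Ccr7, in edgeR under DESeq2 size factors, library totals and the upper quartile (5.54%, 6.14% and 7.75% of all genes fell) and with no filter (4.28%). In DESeq2 it was 5 (with Icosl and Ccr7, where 9.11% of all genes fell). It ranged from 1 without anti-Ly6G replicate 1 (1.31% of all genes) to 6 without CTT replicate 1 (8.64%). Over all genes, 257 rose in neutrophils without control replicate 1 against 74 with all libraries, and 0 without any 1 of the other 5, while DESeq2 gave 441 and 106. All genes in monocytes that fell ranged from 177 to 1168 when a library was left out (681 with all), and those that rose from 706 to 1687 (1354 with all). Upper quartile scaling split the monocyte calls into 1069 that rose and 1030 that fell.

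Among the members, signs turned in 4 fold changes near 0. In neutrophils Cd40 was −0.05 with library totals, −0.01 with the upper quartile, −0.24 without control replicate 1, −0.04 without CTT replicate 2 and −0.04 without CTT replicate 3, with a range of −0.24 to 0.21 over the 6 fits without 1 library. Icosl was 0 (below 0 before rounding) with library totals, −0.19 without control replicate 1 and −0.01 without CTT replicate 2 (−0.19 to 0.22 over the 6). Cd48 was −0.03 with library totals, −0.16 without control replicate 1 and −0.01 without CTT replicate 3 (−0.16 to 0.14). In monocytes Tnfsf9 was 0.10 without CTT replicate 1 and 0.04 without anti-Ly6G replicate 2 (−0.25 to 0.10). The order of the 4 group means was kept in 7 of the 10 members under FPKM and under library totals, the exceptions being Cd40, Icosl and Cd48.

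The replicate number as a block gave 6 monocyte members that fell (Cd40, Icosl and Ccr7 in addition) and 1 that rose, where 7.85% of all genes fell and 11.7% rose. It gave 0 neutrophil members, with 4 genes rising and 1 falling over all neutrophil genes. The labels do not say whether equal numbers mark a shared batch, so the numbers were not taken to pair the libraries. Same-numbered libraries correlated in their deviations from the group mean at 0.24, 0 and 0.22 in neutrophils and at 0.13, −0.05 and 0.18 in monocytes. Differently numbered ones ran from −0.25 to 0.20 in neutrophils and from −0.19 to 0.07 in monocytes. Depth was lowest for Tnfsf4, with 1 to 28 reads a library, and next for Tnfsf9 in monocytes, with 96 to 155.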
